A study of Mus musculus with 15 samples.

Results

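Intestinal stem cell marker genes are described here across inflamed and polypoid mouse colon, with and without 5-ASA (mesalamine, a drug used against colitis). The 8 genes were chosen by name, as crypt base markers (Lgr5, Ascl2, Smoc2, Olfm4, Prom1), reserve or quiescent stem cell markers (Bmi1, Lrig1) and the RNA-binding protein Msi1, out of 21301 genes tested. The choice was made from the measured difference between polypoid and inflamed tissue, in which Lgr5 was higher and Ascl2 and Msi1 were lower. That difference is therefore a description for the 8 genes, and no result on them rests on a p-value for it; tests on them concern 5-ASA against no treatment. The genes had 14 probes, and 7 genes had at least 1 probe bright enough to be tested; Olfm4 had none.

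All animals were female Swiss Webster mice, an outbred stock, and all had received the carcinogen azoxymethane (AOM, 7.4 mg/kg) followed by dextran sulfate sodium (DSS, 4%), which injures the colon lining, in 3 cycles of 7 days with 21 days of plain water after each. Their stated age is 7 weeks on entry; DSS began at 9 weeks and they were killed at 18 weeks. The 4 groups, of 2 mice each, were untreated (vehicle) inflamed tissue, 5-ASA-treated (75 mg/kg) inflamed tissue, untreated polypoid tissue and 5-ASA-treated polypoid tissue, and each mouse gave tissue to 1 group. Tissue was taken by laser capture from frozen colon sections, and its RNA was amplified in 2 rounds and hybridised against a universal mouse reference RNA. Colon without AOM and DSS was not analysed here, so every difference is between tissues of mice that had both.

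The colonic epithelium is renewed from stem cells at the base of each crypt. Lgr5 is the receptor there for R-spondins, which strengthen Wnt signalling, and Lgr5 and the transcription factor Ascl2 are both known as Wnt target genes that are normally found together in crypt base cells. A further set of genes, among them Bmi1 and Lrig1, has been used to mark slower cycling cells that can replace lost crypt base cells after injury.

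The 15 arrays had median sample intensities of 148.6 to 257.2 scanner units over median local backgrounds of 41 to 63, and 57.4% to 90.9% of their spots were well above background in the sample channel. Each mouse was read on a pair of arrays of opposite dye, except treated inflamed replicate 2, which had 1 array. The arrays fell into 4 scan sessions by the scan times in their headers, and the 2 mice of each group lay in different sessions. The spread between mice used for p-values therefore also holds any difference between sessions. Sessions 1 and 4 held inflamed mice only and session 2 polypoid mice only. A difference between sessions can therefore also enter the tissue difference itself. Session 3 held untreated inflamed replicate 2 and the second mouse of both polypoid groups. It was the only session in which both tissues were scanned. Both polypoid groups were scanned in sessions 2 and 3, but treated inflamed replicate 2 was in session 4. The inflamed treatment difference, and its comparison with polypoid tissue, can therefore hold a difference between sessions too. All 7 epithelium markers, among them Vil1, Epcam, Cdh1 and Cdx2, were well above background on all arrays, and the summed sample intensity of the list was 157725 to 217566 in inflamed and 152605 to 222670 in polypoid samples. Krt8 was saturated on 15 of 15 arrays and Krt18 on 10, so the sum is capped and does not show that the tissues held equal epithelium. Cdx1, a crypt and colon identity factor, fell in polypoid tissue (-1.14 ± 0.15, limma adjusted p = 0.017) and the other 6 did not pass. In these bulk samples, fewer cells of a type and less RNA per cell cannot be told apart. Values are log2 of sample over reference for each mouse, so the level of 1 gene cannot be set against the level of another.

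Where the reference tables held the bases before a gene's start, they are shown for the tested genes for which all or nearly all polypoid samples lay on one side of the inflamed samples, so that the promoter letters can be read beside the values. Such windows were held for 5 of the 8 genes (RefSeq, GRCm38.p6), and 250 bases before the start were searched on both strands for the core letters bound by the Wnt effectors TCF and LEF (CTTTGA), for an E-box of the kind bound by Ascl factors (CAGCTG) and for a CCAAT box (CCAAT); no 2 of these motifs share letters in the windows. Capitals mark CCAAT or its reverse complement ATTGG. The windows are Ascl2 at chr7:142969265-142969514 on the minus strand and Bmi1 at chr2:18676768-18677017 on the plus strand, both 5′ to 3′ on the gene's strand.
Ascl2: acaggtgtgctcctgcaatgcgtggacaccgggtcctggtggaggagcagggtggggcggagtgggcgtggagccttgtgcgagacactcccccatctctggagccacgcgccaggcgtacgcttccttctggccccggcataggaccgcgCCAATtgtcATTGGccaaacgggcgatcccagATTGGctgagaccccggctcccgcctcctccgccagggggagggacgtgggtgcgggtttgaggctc
Bmi1: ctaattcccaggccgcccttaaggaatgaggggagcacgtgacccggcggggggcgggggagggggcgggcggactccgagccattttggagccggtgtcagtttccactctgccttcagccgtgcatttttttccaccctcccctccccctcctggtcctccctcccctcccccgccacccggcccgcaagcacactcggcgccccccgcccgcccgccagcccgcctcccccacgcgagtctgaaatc
The Ascl2 window held 3 matches to CCAAT, starting 99, 90 and 67 bases before the start, and the Bmi1 window held none. CCAAT was present in 33.8% of all 32851 mouse windows of this length. The TCF and LEF core (13.8% of all windows) and the E-box (13.0%) were in none of the 6 windows of Ascl2, Olfm4, Prom1, Lrig1 and Bmi1, which says only that these letters are not there. The Ascl2 window was 67.6% and the Bmi1 window 70.4% G and C, beside a median of 52.4% over all windows.

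The tissue comparison asked how polypoid areas of this model differed from inflamed mucosa. Lgr5 and the matricellular protein gene Smoc2 were higher in every polypoid than in every inflamed sample, whereas Ascl2 and Msi1 were lower in every polypoid than in every inflamed sample. For Msi1 this held only once the values were corrected for dye. Prom1, Lrig1 and Bmi1 overlapped between the tissues. That Lgr5 lay above and Ascl2 and Msi1 below was part of the choice of the genes.

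Lgr5, the R-spondin receptor, measured -0.07 and -1.11 in the 2 untreated inflamed mice, -1.49 and 0.23 in the 2 treated inflamed mice, 4.05 and 2.95 in the untreated polypoid mice and 3.34 and 3.12 in the treated polypoid mice. The tissues were separated by a gap of 2.72, which was wider than the whole range of 1.72 among the inflamed samples. The mean was -0.61 in inflamed and 3.36 in polypoid tissue, a difference of 3.97 ± 0.47 (SE, n = 4 against 4), or 15.7-fold, which placed Lgr5 at rank 18 from the top of the 21301 genes. Its sample intensity was 102.2 to 351.7 scanner units on the inflamed arrays and 1378.2 to 9609.7 on the polypoid arrays, and the probe was well above background on all 15 arrays. An offset of 50, added to both channels, draws the ratio of a dim probe towards 0. The difference was 4.71 with the scanner software's own processed signals, 3.79 with the deposited value table and 4.09 with log ratios scaled between arrays. The processed signals also lack the background and dye correction used here, so the part of the offset was not tested. In the values used here the difference was 4.09 ± 0.66 in untreated and 3.86 ± 0.66 in 5-ASA-treated mice, and 4.14 within scan session 3. A second probe carrying the Lgr5 name, matched to a cDNA clone, was not well above background on any array, with intensities of 64.5 to 126.4, and gives no level.

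Smoc2 encodes a secreted calcium-binding matrix protein that is found in Lgr5-positive crypt base cells. It measured 1.1 and -0.18 in untreated inflamed, -0.85 and 0.02 in treated inflamed, 2.47 and 1.84 in untreated polypoid and 2.62 and 3.43 in treated polypoid mice. The highest inflamed sample, untreated replicate 1, lay 0.75 below the lowest polypoid sample. The difference between tissues was 2.57 ± 0.38, or 5.93-fold, with 1.70 ± 0.54 in untreated and 3.44 ± 0.54 in treated mice and 2.82 within scan session 3. A dimmer probe of the same transcript was above background with margin on 4 of 7 inflamed and 7 of 8 polypoid arrays. It met the filter through treated polypoid tissue only. This probe, read at intensities of 79.0 to 177.9, differed by 0.50 (-0.30 to -0.01 against 0.08 to 0.67). That is a smaller difference in the same direction, and it is not read as support for the brighter probe.

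Ascl2, the basic helix-loop-helix transcription factor of crypt base cells, measured 0.93 and 0.69 in untreated inflamed, 0.82 and 0.60 in treated inflamed, 0.38 and 0.31 in untreated polypoid and 0.13 and 0.09 in treated polypoid mice. Every polypoid sample lay below every inflamed sample, by a gap of 0.22. The difference was -0.53 ± 0.10 (1.45-fold), with -0.46 ± 0.15 in untreated and -0.60 ± 0.15 in treated mice and -0.49 within scan session 3. The probe was well above background on all arrays but dim, at 286.8 to 575.2 scanner units on inflamed and 180.5 to 467.1 on polypoid arrays. The difference was -0.75 with the scanner software's processed signals, -0.49 with the deposited value table and -0.48 with log ratios scaled between arrays. The part of the offset in this was not tested.

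Msi1, an RNA-binding protein that represses translation of Numb, measured 3.47 and 3.55 in untreated inflamed, 3.66 and 2.77 in treated inflamed, 2.72 and 2.0 in untreated polypoid and 1.71 and 1.54 in treated polypoid mice. The gap between the tissues was 0.05, between treated inflamed replicate 2 and untreated polypoid replicate 1. It rests on the correction for dye, which was 0.29 for this probe. Before it, the 1 array of treated inflamed replicate 2 (Cy3) read 2.62. The arrays of untreated polypoid replicate 1 read 2.79 (Cy5) and 2.65 (Cy3), so without it these 2 mice overlapped. The difference was -1.37 ± 0.25 (2.58-fold), with -1.15 ± 0.35 in untreated and -1.59 ± 0.35 in treated mice and -1.78 within scan session 3. Intensities were 8345.9 to 35095.5 on inflamed and 3057.5 to 22781.8 on polypoid arrays, with no saturated spot. A second Msi1 probe, matched to a cDNA clone, was dim at 79.4 to 131.4 and differed by -0.05. It was well above background on 4 of 7 inflamed and 4 of 8 polypoid arrays and failed the brightness filter.

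**Figure D1:**
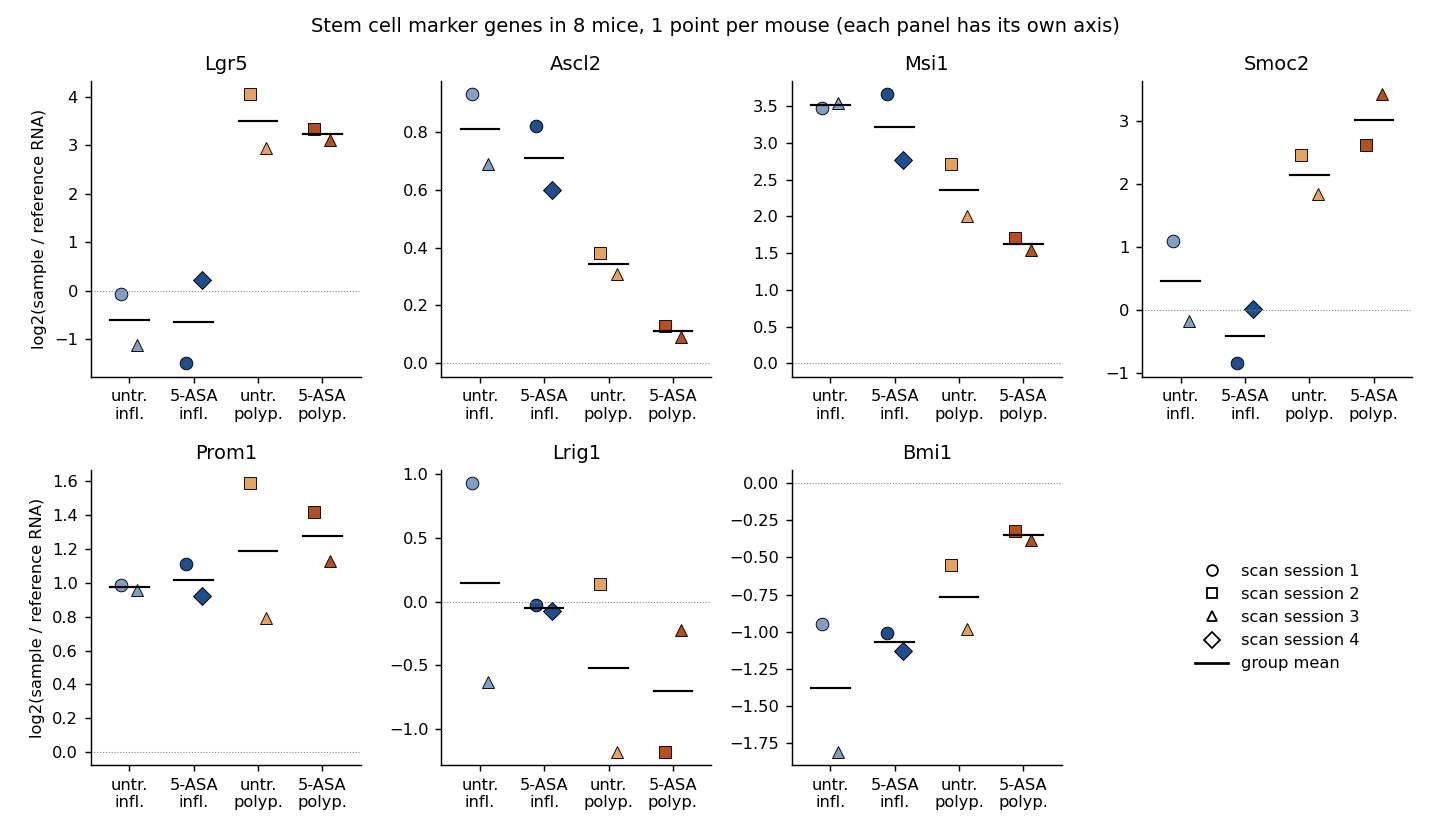
Log2 of sample over reference RNA (vertical axis, scaled separately for each gene) in the 8 mice, by group, with the symbol giving the scan session and the bar the mean of the 2 mice of a group. Lgr5 lies between -1.49 and 0.23 in inflamed and between 2.95 and 4.05 in polypoid samples, while Ascl2 and Msi1 step down from inflamed to polypoid samples.

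Among the other members, Bmi1, a Polycomb repressor named Pcgf4 on the array, measured -0.95 and -1.81 in untreated inflamed, -1.01 and -1.13 in treated inflamed, -0.55 and -0.98 in untreated polypoid and -0.32 and -0.38 in treated polypoid mice. The tissues overlapped by 1 pair of samples, untreated inflamed replicate 1 and untreated polypoid replicate 2, and the difference was 0.67 ± 0.21, with 1.13 within scan session 3. The dimmer Bmi1 probe, which met the filter through untreated polypoid tissue only, differed by 0.19.

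Lrig1, a transmembrane inhibitor of ErbB receptors, measured 0.93 and -0.63 in untreated inflamed, -0.03 and -0.07 in treated inflamed, 0.14 and -1.18 in untreated polypoid and -1.18 and -0.22 in treated polypoid mice. Its spread within the untreated groups (SD 1.1 and 0.93) was wider than the difference between tissues of -0.66 ± 0.46, and within scan session 3 the difference was -0.08. With scan session as a block it was 0.41, the opposite sign.

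Prom1, the membrane glycoprotein CD133, measured 0.99 and 0.96 in untreated inflamed, 1.11 and 0.92 in treated inflamed, 1.59 and 0.79 in untreated polypoid and 1.42 and 1.13 in treated polypoid mice. The tissues overlapped, and the difference was 0.24 ± 0.19 and 0.00 within scan session 3. Its dimmer probe, well above background on all arrays, had the opposite sign, -0.20. No direction between tissues can be given for Prom1 from these probes.

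Olfm4, a secreted glycoprotein that marks crypt base cells of the human intestine and mouse small intestine, could not be tested. One of its probes cleared the background on 2 of 7 inflamed and 0 of 8 polypoid arrays and the other on none, with intensities of 62.8 to 145.0 over both. Without the brightness filter its brighter probe differed by -0.10 ± 0.08. This does not show that the transcript was absent.

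**Figure D2:**
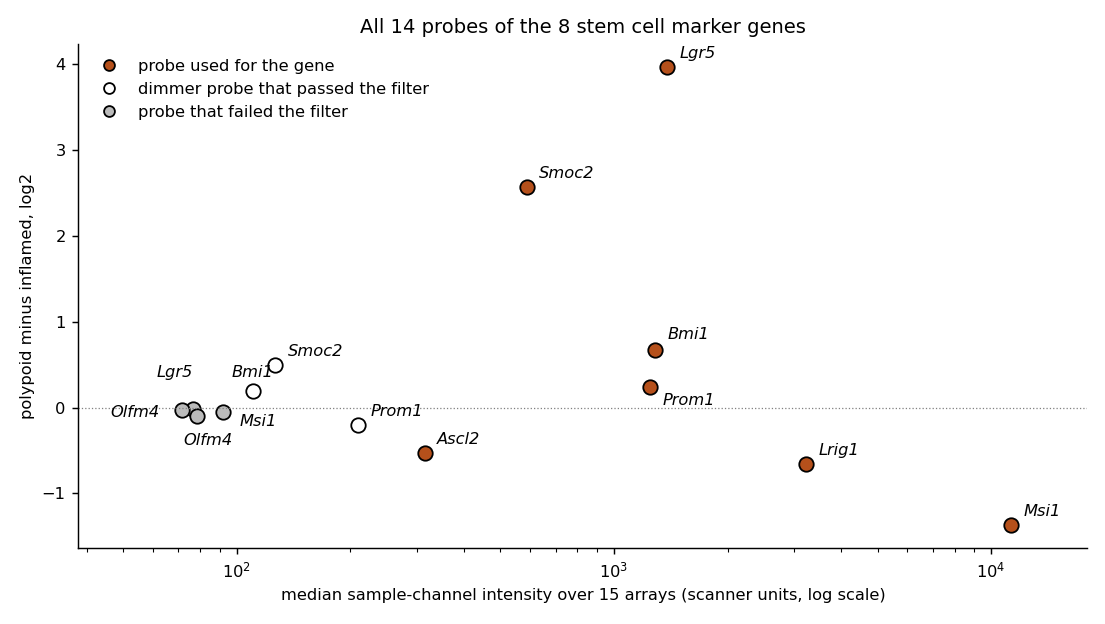
Each of the 14 probes, with its median sample-channel intensity over the 15 arrays (horizontal, log scale) and its polypoid minus inflamed difference in log2 (vertical). The probes that failed the brightness filter lie at the left near 0, and the dimmer probe of Smoc2 and of Bmi1 has a smaller difference than the brighter one, while the dimmer Prom1 probe lies below 0.

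Of the 7 tested genes, Lgr5 and Smoc2 had every polypoid sample above every inflamed sample, beside 8.37% of all genes, and Ascl2 and Msi1 had every polypoid sample below, beside 7.91% of all genes. The same 2 and 2 genes were among the 846 genes higher (3.97% of all) and the 419 lower (1.97%) at an adjusted p under 0.05 when limma was fitted to all genes. The genes were chosen on this contrast, so these counts test nothing and nothing is read from them. The median difference of the 7 genes was 0.24, beside -0.02 over all genes. The differences of these 4 genes kept their signs with the deposited value table and with scan session as a block. Leaving out 1 mouse could not change a sign, because the tissues did not overlap for these genes in the values corrected for dye. Nothing is read from these signs either.

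The treatment comparison asked whether 5-ASA given throughout altered expression in either tissue. No member passed the threshold in either tissue, in both together, or in the test of whether the drug's effect differed by tissue. Over both tissues the differences of 5-ASA minus untreated were -0.15 for Lgr5 (95% interval -1.30 to 0.99), -0.17 for Ascl2 (-0.42 to 0.09) and -0.52 for Msi1 (-1.12 to 0.09). They were 0.00 for Smoc2 (-0.93 to 0.93), 0.06 for Prom1 (-0.41 to 0.53), -0.19 for Lrig1 (-1.32 to 0.93) and 0.36 for Bmi1 (-0.15 to 0.88). The intervals of Lgr5, Smoc2 and Lrig1 hold changes of about 1 log2 unit either way, so these data do not show that the drug left them alone. The smallest limma adjusted p was that of Msi1 (adjusted p = 0.79). In this comparison limma called 0 of 7 members at an adjusted p under 0.05, beside 0% of all genes, and 0 of 7 at an unadjusted p under 0.05, beside 6.39% of all genes (1361).

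In polypoid tissue the treated and untreated mice did not overlap for 4 of the 7 genes. Msi1 (1.71 and 1.54 against 2.72 and 2.0) and Ascl2 were lower in both treated than in both untreated polypoid mice, as were 19.2% of all genes, and Bmi1 and Smoc2 were higher in both, as were 21.3% of all genes. The differences were -0.74 for Msi1 (95% interval -1.59 to 0.12; limma adjusted p = 0.68), -0.24 for Ascl2 (-0.60 to 0.12), 0.42 for Bmi1 (-0.31 to 1.15) and 0.87 for Smoc2 (-0.45 to 2.19). None passed: limma called 0 of 7 members, beside 0% of all genes, and 0 of 7 at an unadjusted p under 0.05, beside 7.77% of all genes (1655). Lgr5 differed by -0.27 (-1.88 to 1.35) in polypoid tissue. Within scan sessions 2 and 3 the treated minus untreated polypoid difference was -1.01 and -0.46 for Msi1, -0.25 and -0.22 for Ascl2, 0.23 and 0.61 for Bmi1, and 0.16 and 1.58 for Smoc2. Markers of other cells also differed in value between these mice, beside a median of 0.01 over all genes, though none passed after adjustment. Of 7 colonocyte markers 0 were higher in treated than in untreated polypoid tissue (median -0.95, 4 with an unadjusted limma p under 0.05). So were 0 of 6 enteroendocrine (median -2.16, 1 such) and 0 of 5 B and plasma cell markers (median -1.55, 1 such). The same held for 0 of 7 epithelium (median -0.4, 3 such) and 1 of 7 goblet cell markers (median -0.76, 2 such). Cycling cell markers went the other way, with 6 of 7 higher (median 0.31, 0 such). The colonocyte water channel Aqp8 measured 4.69 and 2.74 in untreated and -0.09 and -0.03 in treated polypoid mice, and the enteroendocrine hormone gene Gcg 5.24 and 0.89 against -0.06 and 0.01, so untreated polypoid replicate 1 lay highest. Without that mouse the difference was -0.38 for Msi1, -0.20 for Ascl2, 0.63 for Bmi1 and 1.18 for Smoc2. The part of these cells in the differences was not tested. For Lgr5 the difference within sessions 2 and 3 was -0.70 and 0.17 and for Lrig1 -1.32 and 0.96, so these pairs of mice had opposite signs.

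In inflamed tissue the treated and untreated mice overlapped for all 7 genes, and 14.9% and 14.5% of all genes had both treated mice above and below both untreated mice. Lgr5 differed by -0.04 (95% interval -1.66 to 1.58), Ascl2 by -0.10 (-0.46 to 0.26), Msi1 by -0.30 (-1.15 to 0.56) and Smoc2 by -0.87 (-2.19 to 0.44). Limma called 0 of 7 members, beside 0% of all genes, and 0 of 7 at an unadjusted p under 0.05, beside 4.38% of all genes (934). The treatment effect on Smoc2 had opposite signs in the tissues, and its difference between tissues was 1.74 ± 0.76 (limma adjusted p = 0.86), the largest among the members. For that difference of effects limma called 0 of 7 members, beside 0% of all genes, and 0 of 7 at an unadjusted p under 0.05, beside 5.98% of all genes (1273). Smooth muscle markers differed in value between the inflamed mice as well, though none passed after adjustment. Of 6 such markers, 0 were higher in treated tissue (median -1.70 beside -0.01 over all genes, 4 with an unadjusted limma p under 0.05). In scan session 1 treated minus untreated inflamed tissue was -1.94 for Smoc2 and -1.42 for Lgr5.

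**Figure D3:**
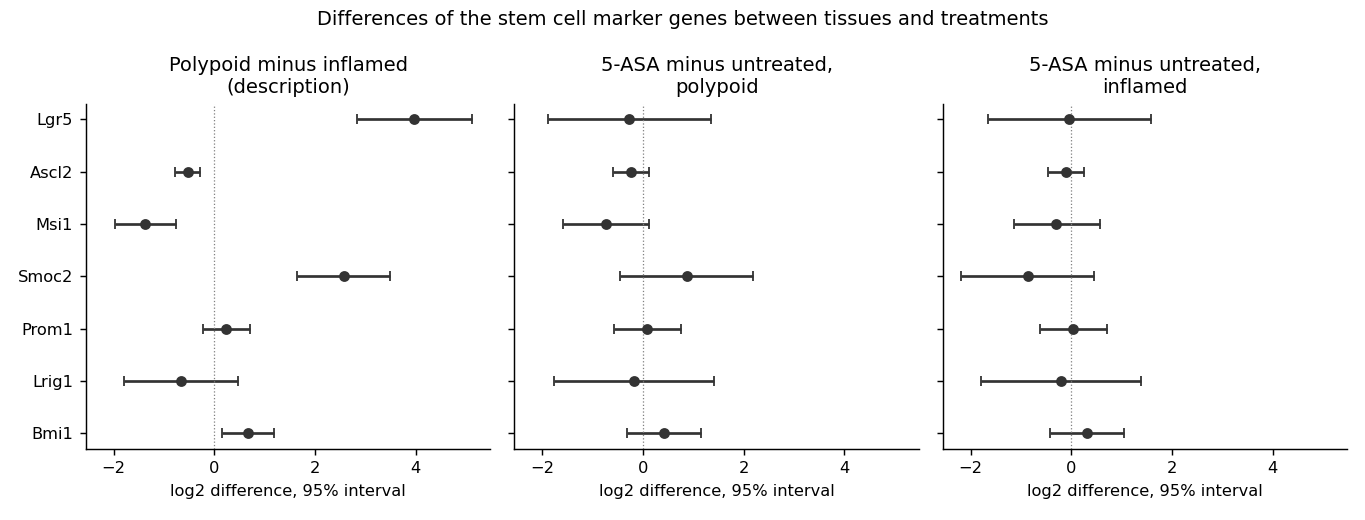
Log2 differences of the 7 tested genes with 95% intervals from limma (horizontal) for polypoid minus inflamed tissue and for 5-ASA minus untreated mice in each tissue. The intervals of both treatment comparisons include 0 for every gene; those of Lgr5, Smoc2 and Lrig1 are wide, and that of Lgr5 in polypoid tissue runs from -1.88 to 1.35.

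Other genes of crypt base and reserve stem cells were read from 2 lists of 38 genes in all, of which 37 were measured. The lists were chosen with earlier results of these data known, so their counts for the tissues are a description. Of the 37 genes, 16 rose and 1 fell in polypoid tissue (limma, adjusted p under 0.05), beside 3.97% and 1.97% of all genes. Their median difference was 0.87 beside -0.02 over all genes, and 1.24 within scan session 3. Leaving out treated inflamed replicate 1, treated inflamed replicate 2 or treated polypoid replicate 2 gave 8, 11 and 11 calls in place of 17, and with scan session as a block there were 0.

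Among 29 measured crypt base genes, 14 rose and 1 fell, beside 3.97% and 1.97% of all genes. Mex3a, an RNA-binding protein of a slowly cycling Lgr5-positive subset, rose from -4.34 to -3.49 in the inflamed samples to -0.19 to 1.2 in the polypoid samples (4.23 ± 0.23, limma adjusted p = 0.0028). Axin2, the feedback inhibitor and Wnt target, rose by 3.48 ± 0.27 (adjusted p = 0.0049), and Sp5, a Wnt-induced transcription factor, by 4.77 ± 0.43 (adjusted p = 0.0066), with Sp5 clear of background on 6 of 7 inflamed arrays. The pleckstrin homology-like gene Phlda1 rose by 3.48 ± 0.27 (adjusted p = 0.0049). The gene that fell was the vitamin D receptor Vdr (-0.77 ± 0.13, adjusted p = 0.027). These 4 rising genes were named for having the smallest p in this contrast. In each, as in 8.37% of all genes, every polypoid sample lay above every inflamed sample. The choice made this likely, so nothing is read from it.

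Of 10 reserve stem cell genes, 4 rose, beside 3.97% of all genes, with a list median of 1.35. They were Mex3a and the transcription factor Sox9 (1.69 ± 0.17, limma adjusted p = 0.0085), both also on the crypt base list, the transcription factor Prox1 (3.39 ± 0.28, adjusted p = 0.0055), clear of background on 6 of 7 inflamed arrays, and the cell cycle inhibitor Cdkn1c, p57 (2.30 ± 0.31, adjusted p = 0.016). Lrig1 and Bmi1, the members with this label, were not among the genes whose tissues separated. Under 5-ASA, 0 of the 37 genes passed in limma over both tissues, beside 0% of all genes. At an unadjusted p under 0.05 there were 7 of the 37 over both tissues, beside 6.39% of all genes. There were 9 in polypoid tissue (7.77% of all genes), 2 in inflamed tissue (4.38%) and 4 for the difference of effects (5.98%). The median of the 37 over both tissues was 0.20 beside -0.01 over all genes.

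**Figure D4:**
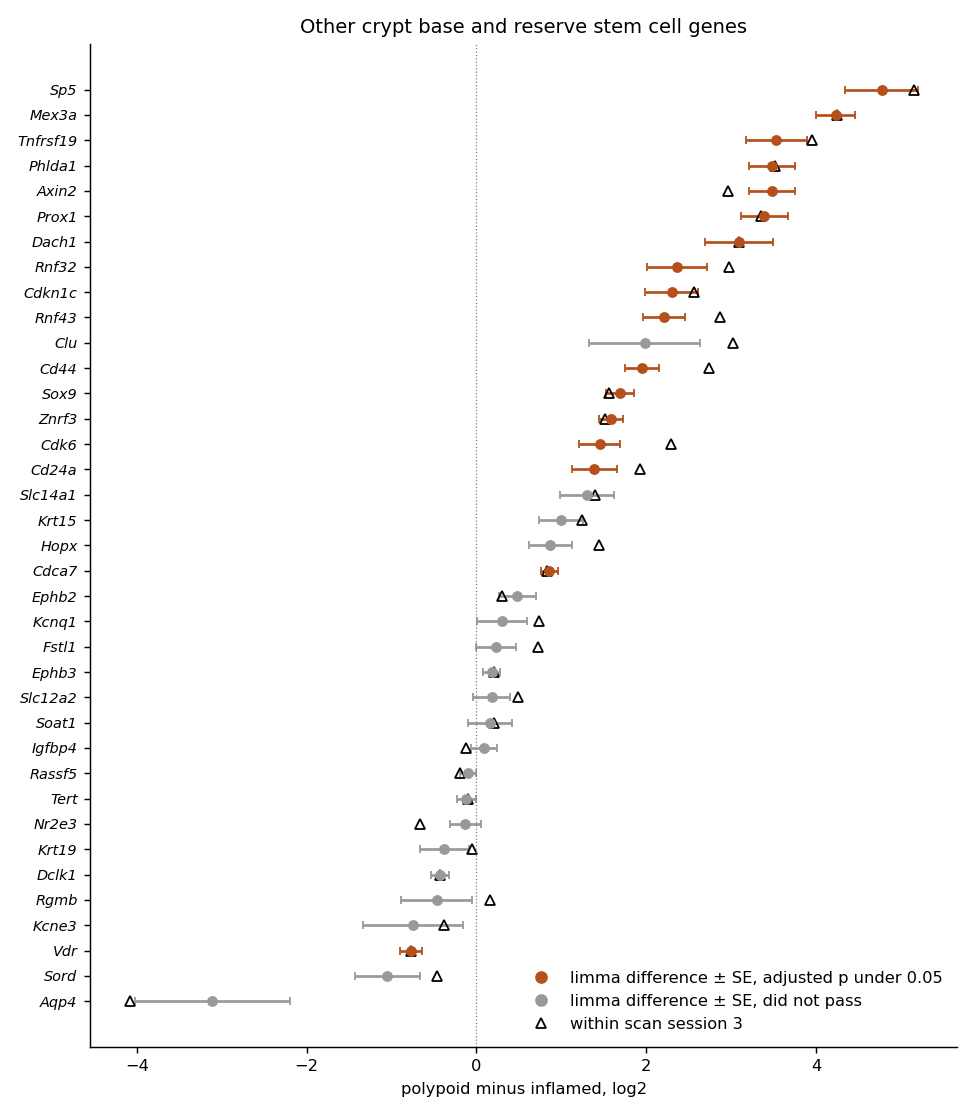
Polypoid minus inflamed difference in log2 (horizontal) for the 37 measured crypt base and reserve stem cell genes other than the members, with the standard error as bar, and the difference within scan session 3 as open triangle. The 16 genes that rose lie between Cdca7 at 0.86 and Sp5 at 4.77, and Vdr at -0.77 is the 1 that fell.

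Genes that act with the members or are related to them were read from further lists. Of all genes, 3.97% rose and 1.97% fell in polypoid tissue. Of 19 measured R-spondin and niche genes, 2 rose: the ubiquitin ligases Rnf43 (2.21 ± 0.25, limma adjusted p = 0.011) and Znrf3 (1.58 ± 0.14, adjusted p = 0.0066), which remove Wnt receptors and are held back by R-spondin bound to Lgr receptors. Both are also on the crypt base list. The median of the niche list was -0.14. Of the R-spondin genes, Rspo1 (-0.43 ± 0.28) and Rspo3 (-0.02 ± 0.10) did not pass, and Rspo2 and Rspo4 had no value. Lgr4, the related receptor, differed by -0.66 ± 0.44, and Lgr6 was not bright enough to be tested.

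Of 15 Notch pathway genes, the receptor Notch1 rose (1.18 ± 0.19, limma adjusted p = 0.024) and the Notch inhibitor Numb, whose translation Msi1 represses, fell (-0.76 ± 0.11, adjusted p = 0.022), with a median of 0.00. The arrays measured the RNA of Numb, which does not show whether its translation was repressed. That RNA was lower in the same tissue in which Msi1 RNA was lower. Numb was also the only call among 9 described targets of the members. Among these, Cdkn2a, the locus silenced by Bmi1, differed by 0.70 ± 0.20 without passing (limma adjusted p = 0.098). Its probe cleared the background on 1 of 7 inflamed arrays and met the filter through treated polypoid tissue only.

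Of 12 measured paralogs of the members, Prom2, the relative of Prom1, rose by 1.5 ± 0.11. It cleared the background on 2 of 7 inflamed arrays only, both of untreated mice, and met the filter through polypoid tissue only. Its call is therefore not read as support. Lrig3 fell (-2.03 ± 0.32, adjusted p = 0.023) and Pcgf1, a relative of Bmi1, rose (0.54 ± 0.11, adjusted p = 0.042). Msi2 differed by -0.21 ± 0.17 and Smoc1 by 0.36 ± 0.15, and neither passed. Smoc1 also met the filter through polypoid tissue only. Of 14 genes of Polycomb repressive complex 1, to which Bmi1 belongs, Pcgf1 and the chromobox gene Cbx2 (1.09 ± 0.13, adjusted p = 0.012) rose, with a median of 0.16. For 5-ASA over both tissues, limma called 0 genes in each of these lists, beside 0% of all genes. At an unadjusted p under 0.05 there were 4 niche genes, 2 Notch pathway genes, 0 described targets, 1 paralog and 2 genes of Polycomb repressive complex 1. The share of all genes at that p was 6.39%.

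The 3 tested genes whose profiles over the 8 mice, each centred on its own mean, were nearest to Lgr5 were the zinc transporter Slc30a2 (root mean square difference 0.23), the matrix protease Mmp7 (0.39) and the Wnt-inactivating deacylase Notum (0.40), where the Lgr5 profile itself had a root mean square of 2.07. For Ascl2 (0.29) they were the steroid dehydrogenase Hsd3b1 (0.06), the calcium pump Atp2a3 (0.06) and Cfap299 (0.07). For Msi1 (0.80) they were the elongation factor Tcea3 (0.18), the lymphocyte surface gene Cd7 (0.19) and Fam161a (0.20). Among the members, Smoc2 was nearest to Lgr5 (0.93) and Ascl2 nearest to Msi1 (0.52), whereas the member nearest to Ascl2 was Prom1 (0.45). Both distances of Ascl2 were larger than the root mean square of its own profile (0.29), so they make no pair of it. All of these profiles except that of Prom1 hold the step between the tissues.

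**Figure D5:**
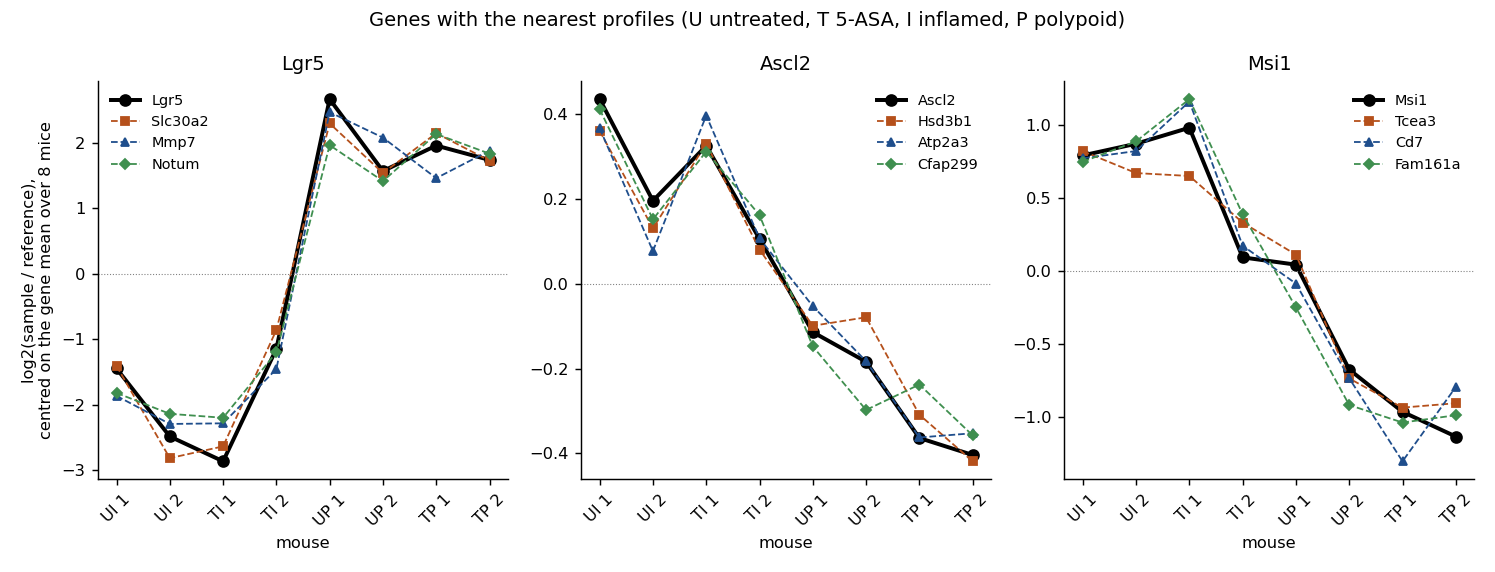
Profiles of Lgr5, Ascl2 and Msi1 and of the 3 genes nearest to each over the 8 mice (horizontal), as log2 of sample over reference centred on each gene's mean (vertical, scaled separately). The lines join the mice only to guide the eye; Lgr5 and its neighbours step up between the inflamed and the polypoid mice, and Ascl2 and Msi1 with theirs step down.

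Marker genes of other cell types differed between the same tissues, in which 3.97% of all genes rose and 1.97% fell. Of 7 colonocyte markers 5 fell, with a summed intensity of 108590 to 173628 in inflamed and 29205 to 74852 in polypoid samples, and of 6 enteroendocrine markers 4 fell, with 94622 to 215247 against 2494 to 56124. Of 6 smooth muscle markers Tagln and Cnn1 fell, with 19501 to 142088 against 12584 to 23586. Of 4 measured neutrophil markers 3 rose, with 424 to 750 against 7547 to 17323; of these Retnlg cleared the background on 2 of 7 inflamed arrays and met the filter through polypoid tissue only. Of 7 cycling cell markers Mcm6 rose, with 23545 to 43158 against 39501 to 48854, and of 5 measured enteric neuron and glia markers none passed, with 1627 to 2160 against 1275 to 1496. Of 7 goblet cell markers Fcgbp fell, with 257961 to 398384 against 33576 to 215281, sums in which Tff3, Zg16 and Clca1 were each saturated on 9 arrays. Of 5 B and plasma cell markers Mzb1 fell, with 20431 to 64260 against 1511 to 28951. Of 6 tuft cell markers Avil rose, with a probe that cleared the background on 0 of 7 inflamed arrays and met the filter through treated polypoid tissue; the other 5 had differences below 0 that did not pass, and the list's median was -0.21, with 1114 to 1428 against 911 to 1060. Of 5 Paneth and deep crypt secretory markers Mmp7 and Defa23 rose, with 9773 to 38883 against 36922 to 105696. Defa23, clear of background on 4 of 7 inflamed arrays, met the filter through polypoid tissue only, whereas Kit (-0.64) and Reg4 (-0.36) were below 0 without passing. None of the 6 fibroblast, 4 measured endothelial, 5 T cell and 5 macrophage markers passed in limma. This does not show that the tissues held these cells alike. The part of these cell types in the differences of the stem cell markers was not tested.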

How the data were processed

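Each deposited array file gives, per the file headers, intensity (mean and processed) and local background of both channels and a log10 ratio, from Agilent Feature Extraction 9.1.1.1. The authors' deposited table gives log2 ratios whose column medians were -0.012 to 0.031 and whose correlation with the ratios computed here was 0.996 or above on each array; how it was made is not given in the sources used here. In R 4.3.3 with limma 3.58.1, background was corrected by normexp (offset 50), dyes by loess within arrays, and swapped arrays were turned. Outlier spots were dropped. The 15 arrays were reduced to 1 value per probe and mouse by a linear model with mouse and dye terms. Probes had to be above background in all arrays of some group, by the scanner's own call, and the brightest one stood for its gene. This gave 21301 genes, of which 2 lacked a value in 1 mouse. Of 41174 probes, 22864 were named by accession and 10230 by name or unique synonym through RefSeq (GRCm38.p6); 8080 kept the array's name. The array files name no build.

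Group means were compared in limma (lmFit, eBayes; 4 residual and 2.14 prior degrees of freedom), with Benjamini-Hochberg adjustment over all genes and a threshold of 0.05. The fit was tested on simulated data. The members, the gene lists and the rule for naming genes were chosen with earlier results of these data known. The rule named every member, up to 4 genes that rose and 4 that fell of each list by smallest p, measured paralogs, and the 3 nearest profiles of Lgr5, Ascl2 and Msi1; Rspo1, Rspo3, Lgr4, Cdkn2a, Vil1, Epcam, Cdh1, Cdx2, Krt8, Krt18, Tff3, Zg16, Clca1, Kit and Reg4 were named after their values were seen. The alternatives tried are given in the closing section.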

Additional observations from a re-analysis of the deposited data

How the results depend on the processing

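The 2 mice per group limit every comparison. Probes that failed the brightness filter (both of Olfm4, 1 each of Lgr5 and Msi1) were not used for a level, though that of Msi1 cleared the background on some arrays. The settings tried were the scanner software's processed signals, the deposited value table, scaling of the log ratios between arrays (chosen after seeing the data, because Aquantile scaling leaves log ratios as they are), no brightness filter, the mean over a gene's probes, outlier flags kept, a plain mean of an animal's arrays, scan session as a block, a replicate block, and leaving out each mouse. The count of members past the threshold for polypoid over inflamed tissue, which the choice of genes used and which tests nothing, was 4. It was 2 with the value table, 0 with scan session as a block and 0 to 3 when 1 mouse was left out. It was 3 with scaled log ratios and 4 otherwise. The count of other stem cell genes, 17, was 0 with scan session as a block, 8 to 18 when 1 mouse was left out and 16 to 19 otherwise. The session block left 1 residual degree of freedom. Counts of members for 5-ASA were 0 in every setting. All genes called for the tissues, 1265, were 1800 with processed signals, 894 with scaled log ratios and 0 with the session block, and they ran from 125 (treated inflamed replicate 1 left out) to 1326 when 1 mouse was left out.

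Shared replicate numbers do not show that mice were paired: across genes, the deviations of same-numbered mice correlated at 0.03 to 0.36 between groups. With the replicate block 4 members, 19 other stem cell genes and 1788 of all genes were called for the tissues, and 0 members for 5-ASA.

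Several small treatment differences, none past the threshold, changed sign; the cause was not tested. In inflamed tissue processed signals gave Lgr5 0.03 and Prom1 -0.04. Scaled log ratios gave Smoc2 0.16 over both tissues, Lgr5 0.09 in polypoid tissue and 0.20 for Lgr5 in the difference between tissues. The mean over probes gave Smoc2 0.08 and Prom1 -0.10 over both tissues, Prom1 -0.07 in polypoid and -0.12 in inflamed tissue, and Bmi1 -0.08 in the difference between tissues. The plain mean of arrays gave Smoc2 0.02 over both tissues. Session as a block gave Msi1 0.19 and Bmi1 -0.06 in inflamed tissue, and Lgr5 1.15 and Prom1 -0.03 in the difference between tissues. It also gave tissue differences of 4.85 for Lgr5, -1.87 for Msi1, 3.79 for Smoc2, 0.41 for Lrig1 and 1.16 for Bmi1. The mean over probes gave 1.53 for the tissue difference of Smoc2.

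Leaving out 1 mouse at a time also changed signs of treatment differences. Over both tissues the ranges were -0.58 to 0.28 for Lgr5, -0.32 to 0.32 for Smoc2, -0.14 to 0.26 for Prom1 and -0.58 to 0.20 for Lrig1. In polypoid tissue they were -0.81 to 0.28 for Lgr5, -0.31 to 0.49 for Prom1 and -0.84 to 0.48 for Lrig1. In inflamed tissue they were -0.90 to 0.82 for Lgr5, -0.22 to 0.02 for Ascl2, -0.74 to 0.15 for Msi1, -0.06 to 0.13 for Prom1, -0.98 to 0.58 for Lrig1 and -0.12 to 0.74 for Bmi1. For the difference of effects between tissues they were -1.08 to 0.63 for Lgr5, -0.89 to 0.00 for Msi1, -0.35 to 0.45 for Prom1, -0.75 to 0.80 for Lrig1 and -0.32 to 0.54 for Bmi1.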
